A study of Homo sapiens with 6 samples.

Results

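The genes described here encode the subunits of the proteasome and the factors that help to assemble, activate or inhibit it. They were taken as the protein-coding genes of the count table whose symbol begins with PSMA to PSMG and a number, without the inducible subunits PSMB8 and PSMB9, at a mean of at least 1 CPM (counts relative to the scaled total of the library) over the 6 libraries. The pattern took 47 protein-coding genes, of which 40 reached that level among 63677 gene identifiers in the table. The 40 comprised 11 genes of the 20S core (4 alpha and 7 beta subunits), 16 of the 19S cap (6 ATPases of the base, 2 other base subunits and 8 lid subunits), 5 activators or inhibitors and 6 assembly factors. The other 2, PSMC3IP and PSME3IP1, carry a matching symbol but encode no subunit or assembly factor of the proteasome. PSMB3, which encodes the beta3 subunit, was not analysed here.

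The study silenced RBM3, a cold-inducible RNA-binding protein, in T24, a line of human bladder cancer cells of grade 3. RNA was sequenced from 3 control libraries, from cells given a non-targeting siRNA, and from 3 siRBM3 libraries, from cells given a pooled pair of siRNAs against RBM3. Both groups were transfected for 4.5 h at 25 nM siRNA and then recovered overnight. The line is a single cancer line and the knockdown is transient, and no source states that the replicates came from separate cultures, so p-values measure only the spread between these samples, which may be technical.

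The 26S proteasome degrades proteins that carry ubiquitin chains. Its 20S core is a barrel of stacked rings of alpha and beta subunits with the proteolytic sites inside, and its 19S cap, made of a base with a ring of ATPases and a lid, binds the ubiquitylated substrate, removes the ubiquitin and threads the chain into the core. The transcription factor NFE2L1 binds antioxidant response elements of proteasome genes and raises their transcription when proteasome activity is limiting. Cancer cells are known for a high demand on this machinery, and PSMB5 encodes the site bound by the drug bortezomib.

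Promoter windows from RefSeq (GRCh38.p14, 250 bases before to 50 bases after a gene start) were matched for 34 of the 40 genes. No window was matched for PSMA7, PSMB1, PSMB6, PSMB7, PSMD4 and PSMG3. The core of the antioxidant response element, TGACNNNGC on either strand, was found in 12 of the 34 genes (35.3%). It was found in 16.1% of all 27305 genes with a promoter window, whether or not they are expressed in these cells. By window, 28.6% of 42 member windows and 13.3% of all 35116 windows held it. CCAAT, the CCAAT box, was found in 47.6% of member windows and 34.6% of all windows, and GGGCGG, the GC box, in 66.7% and 45.0%, both on either strand. Windows of the same gene can overlap and hold the same match. By gene, CCAAT was found in 52.9% of the 34 members and 39.7% of all genes, and GGGCGG in 64.7% and 48.3%. The 3 motifs were searched apart, and a match is a string of letters, not a measured binding site. The matches of the cap subunits and of the assembly factor PSMG1 are printed because 15 of 16 cap genes lay on the same side of 0 in the comparison that follows and PSMG1 was the member with the lowest FDR outside the core, and capitals mark the letters of the motif, which read GCNNNGTCA where the match lies on the other strand of the gene.
PSMG1, chr21:39183616-39183644, minus strand: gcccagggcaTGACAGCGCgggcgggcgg
PSMC4, chr19:39971182-39971210, plus strand: acagaggccgGCTTGGTCActatggagga
PSMC5, chr17:63827654-63827682, plus strand: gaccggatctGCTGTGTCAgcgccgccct
PSMD1, chr2:231056896-231056916, plus strand: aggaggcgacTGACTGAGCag
PSMD3, chr17:39980760-39980788, plus strand: tcccctttgtTGACTCGGCcatcggcctg
PSMD3, chr17:39980830-39980856, plus strand: gtttgcagctGCTCCGTCAtcgtgcgg
PSMD12, chr17:67366724-67366752, minus strand: agacaaaaccTGACGCTGCaggctggagt
Of the 5 members lower in siRBM3 at an unadjusted p under 0.05, PSMG1 held TGACNNNGC, and PSMB5, PSMD7, PSMD11 and PSMC3IP held none in their windows. The CCAAT matches of PSMB5 and PSMD7 are shown as examples of lower subunits with the CCAAT box, in capitals.
PSMB5, chr14:23035370-23035394, minus strand: attattttacCCAATtttagaaggt
PSMD7, chr16:74296606-74296630, plus strand: acggtacaggCCAATaccaggaggt
The holders of TGACNNNGC whose matches are not printed are PSMA4, PSMD5, PSME1, PSME2, PSME4 and PSMG2. Of these PSMA4 and PSME4 lay above 0, at log2 fold changes of 0.18 and 0.19. The 12 genes with TGACNNNGC had a median log2 fold change of -0.14, with 10 below 0. The 22 matched genes without it had a median of -0.14, with 16 below 0. Of the 18 genes with CCAAT 13 were below 0, with a median of -0.14. Of the 16 matched genes without it 13 were below 0, with a median of -0.12. For GGGCGG the medians were -0.15 with it and -0.13 without it.

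The libraries held between 23603992 and 45098612 counts, the deepest being siRBM3 replicate 3, so that even the lowest member, at a mean of 15.3 CPM, was well covered in each. RBM3 was measured at 225 CPM, 368 CPM and 301 CPM in control replicates 1, 3 and 5 and at 54.1 CPM, 90.1 CPM and 58.4 CPM in siRBM3 replicates 3, 4 and 5. The silenced gene was lower in every siRBM3 library, with a log2 fold change of -2.14 ± 0.24 (SE), p = 2.3e-05 and FDR 0.082 in edgeR's quasi-likelihood test, and the exact two-sided permutation test gave p = 0.1, the smallest that 3 against 3 libraries allow. Of 15 epithelial and urothelial markers, 8 were at 1 CPM or more, KRT7 among them, and 7 (KRT5, KRT17, CDH1, UPK1B, UPK3A, KRT20 and TP63) were below it. Of 8 leukocyte markers 7 were below 1 CPM, with CD14 the exception at a mean of 2.47 CPM in control.

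Among the genes the pattern took, 7 stood below 1 CPM in these cells and are not members. PSMA8, a testis subunit, had 15 counts over the 6 libraries and PSMB11, a thymus subunit, had 0. The other 5 encode parts that the standard proteasome of any cell needs or uses: the alpha subunits PSMA1, PSMA2 and PSMA6, the large base subunit PSMD2 and the base chaperone PSMD9. PSMA1, one of the 3 genes taken to mark this list, had 3, 2 and 6 counts in the control libraries and 0, 1 and 1 in the siRBM3 libraries. PSMA6 had 4 counts in all, and PSMA2, PSMD2 and PSMD9 had 0. The other markers of the list, PSMB5 and PSMD1, were well measured. Of these 5 genes, 4 shared exon bases on the same strand with another annotated protein-coding gene (PSMA1 26.7%, PSMA2 17.2%, PSMD9 14.9% and PSMA6 14.1% of their exon bases), and PSMD2 shared none. The gene that overlaps PSMA6 held 539 counts over the 6 libraries, the one that overlaps PSMA2 on its own strand held 18, and those that overlap PSMA1 and PSMD9 held 0. The part of this overlap in the low counts was not tested, and these values are listed counts that cannot be read as absence of the mRNA.

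**Figure D1:**
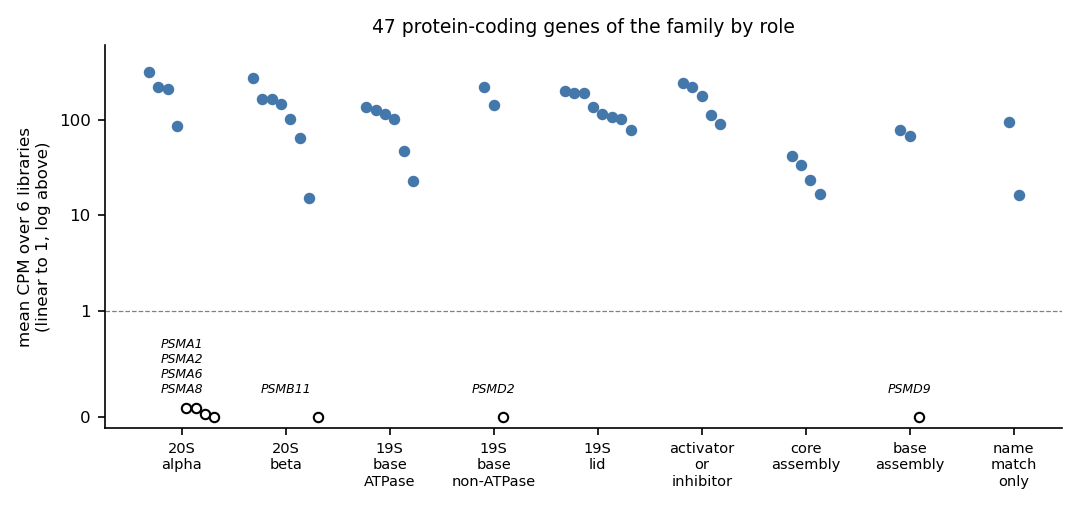
Mean CPM over the 6 libraries (y axis, linear to 1 and logarithmic above it) for the 47 protein-coding genes by role (x axis), 1 point for each gene. Filled points are the 40 members, between 15.3 and 320 CPM, and open points are the 7 genes below the dashed line at 1 CPM, which are named.

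The comparison of siRBM3 with control asks how the mRNAs of the proteasome stood after RBM3 was silenced. No member passed the study's thresholds of a 1.5-fold change and an FDR under 0.01 in edgeR's quasi-likelihood test. In that test 0% of all 15099 genes tested passed them, and the silenced RBM3 did not pass either, at an FDR of 0.082. The paper applied these thresholds with DESeq2. With DESeq2 as run here, under which 1.27% of 12589 genes passed, the count of members was also 0. These are bulk samples, in which fewer cells of a type and less RNA per cell cannot be told apart. At an unadjusted p under 0.05, 5 of the 40 members (12.5%) were lower (PSMB5, PSMG1, PSMD7, PSMD11 and PSMC3IP), beside 6.58% of all genes tested and 8.60% of the 7968 genes tested within the members' own range of mean CPM. At the same p 0 members were higher, beside 6.56% of all genes. DESeq2 gave 4 lower and 0 higher, beside 3.48% and 3.24% of 30089 genes. Those genes were not filtered on low counts, so these shares are not alike with those of edgeR. The lowest FDR of a member was 0.214, for PSMB5. Without control replicate 1 the count lower was 9 beside 8.64% of all genes, and without control replicate 5 it was 3 beside 4.51%. Without siRBM3 replicate 3 it was 2 beside 5.35% of all genes, and without siRBM3 replicate 4 it was 3 beside 4.58%.

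Most members had a small log2 fold change below 0. The log2 fold change was below 0 in 32 of the 40 members and the median was -0.13, against a median of -0.01 over all genes tested, of which 51.5% were below 0. Among the 7968 genes in the members' range of mean CPM the median was -0.02 and 54.6% were below 0. Between 28 and 35 members were below 0 when each library was left out in turn. The siRBM3 libraries were all below the control libraries for 9 members (22.5%), beside 9.93% of all genes tested and 12.6% of genes in the same range of CPM, and all above them for 1 member (2.5%), beside 9.98%. For 35 members (87.5%) the 95% interval lay within a 1.5-fold change either way, as it did for 73.3% of genes in the same range of CPM. The summed CPM of the 15 epithelial and urothelial markers did not overlap between the groups, at 5222 to 6018 in control and 4357 to 4465 in siRBM3. KRT7 (mean 3167 CPM in control and 2441 CPM in siRBM3) and KRT8 (1149 CPM and 889 CPM) made up most of that sum, and of the 8 markers at 1 CPM or more 5 had a lower and 3 (EPCAM, GATA3 and UPK2) a higher mean in siRBM3. The sum of 6 endothelial or fibroblast markers was 39.3 to 44.8 CPM in control and 47.2 to 52.6 CPM in siRBM3, with DCN and VWF below 1 CPM. Most of that sum was CDH5 (mean 30.4 CPM in control and 36.7 CPM in siRBM3). The 4 markers at 1 CPM or more all had a higher mean in siRBM3. The summed leukocyte markers overlapped, at 2.56 to 3.37 CPM and 2.37 to 2.78 CPM. Their part in the members' difference was not tested.

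**Figure D2:**
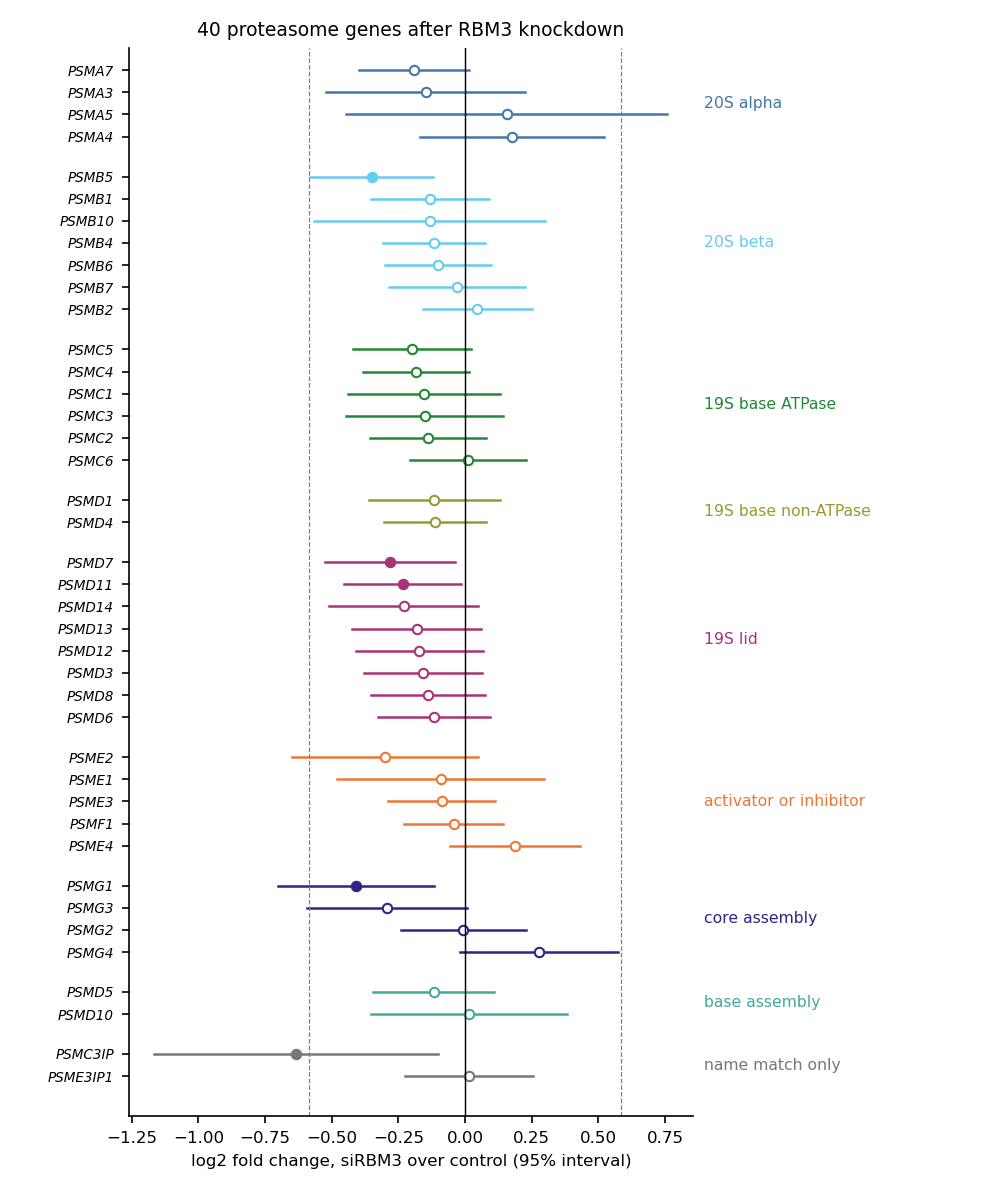
Log2 fold change of siRBM3 over control (x axis) with its 95% interval for the 40 members, grouped by role. Filled points have an unadjusted p under 0.05, dashed lines mark a 1.5-fold change, and all 8 lid subunits lie left of 0.

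In the 20S core, 8 of 11 genes were below 0, with a median log2 fold change of -0.12, which was -0.07 without control replicate 5 and -0.08 without siRBM3 replicate 3. The alpha ring gates the entry to the chamber. PSMA7, which encodes alpha4, was measured at 336 CPM, 345 CPM and 343 CPM in control and 305 CPM, 316 CPM and 276 CPM in siRBM3. All siRBM3 libraries were below all control libraries, with a log2 fold change of -0.19 ± 0.09 (SE) and an FDR of 0.412 in edgeR. The other alpha subunits varied more between libraries of 1 group. PSMA5, alpha5, was at 148 CPM, 251 CPM and 194 CPM in control and at 262 CPM, 254 CPM and 145 CPM in siRBM3, the widest spread within groups of any member (SD 0.43 on the log2 CPM scale, against a median of 0.11 over the members). PSMA5 was lowest in control replicate 1 and siRBM3 replicate 5, its groups overlapped, and its interval of -0.45 to 0.76 on the log2 scale does not exclude a 1.5-fold rise. PSMA4, alpha3, had a log2 fold change of 0.18 (95% interval -0.17 to 0.52) and PSMA3, alpha7, one of -0.15 (95% interval -0.52 to 0.22).

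The beta subunits of the core include the 3 proteolytic ones. PSMB5, the chymotrypsin-like beta5 subunit, was measured at 72.0 CPM, 69.0 CPM and 77.8 CPM in control and 52.7 CPM, 60.3 CPM and 58.7 CPM in siRBM3. No siRBM3 library reached the lowest control library. The control mean was 72.9 ± 4.49 CPM and the siRBM3 mean 57.2 ± 4.03 CPM (each SD, n = 3). The siRBM3 level was 0.785 times the control level, a log2 fold change of -0.35 ± 0.10 (SE) with an FDR of 0.214 in edgeR, and the unadjusted p was under 0.05 in all 6 fits that left out 1 library. The gene lies at chr14:23485752-23504439 (GRCh37, minus strand).

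The other proteolytic subunits did not share that size of difference. PSMB6, the caspase-like beta1, was measured at 104 CPM, 101 CPM and 110 CPM in control and 94.7 CPM, 98.2 CPM and 101 CPM in siRBM3, with a log2 fold change of -0.10 (95% interval -0.30 to 0.10). PSMB7, the trypsin-like beta2, was measured at 144 CPM, 170 CPM and 185 CPM in control and 167 CPM, 169 CPM and 152 CPM in siRBM3, with a log2 fold change of -0.03 (95% interval -0.29 to 0.23). Both pairs of groups overlapped, and the difference between PSMB5 and either of them was not tested. PSMB4, the structural beta7, stood at 279 CPM, 279 CPM and 298 CPM in control and at 257 CPM, 270 CPM and 264 CPM in siRBM3. These groups did not overlap although the difference was small, at -0.12 on the log2 scale with an FDR of 0.604 in edgeR. PSMB10, the inducible form of beta2, was at 12.6 to 19.4 CPM in control and 12.6 to 16.9 CPM in siRBM3, and 39.4% of its exon bases lie on a same-strand protein-coding gene.

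In the 19S cap, 15 of 16 genes were below 0, with a median log2 fold change of -0.16. For all 16 the 95% interval lay within a 1.5-fold change either way, and 15 or 16 were below 0 with each library left out. Without siRBM3 replicate 5 the median was -0.20. In the ATPase ring, which unfolds and threads the substrate, 5 of 6 genes were below 0. PSMC4, Rpt3, was measured at 126 CPM, 122 CPM and 122 CPM in control and 104 CPM, 108 CPM and 116 CPM in siRBM3, without overlap, at a log2 fold change of -0.18 ± 0.09 (SE) and an FDR of 0.414 in edgeR. PSMC5, Rpt6, was measured at 139 CPM, 128 CPM and 142 CPM in control and 108 CPM, 124 CPM and 124 CPM in siRBM3, again without overlap, at a log2 fold change of -0.20 ± 0.10 (SE) and an FDR of 0.427 in edgeR. PSMC6, Rpt4, was the exception at 44.9 to 49.8 CPM in control and 46.1 to 49.2 CPM in siRBM3. PSMC1, Rpt2, shares 76.1% of its exon bases with NRDE2 on the opposite strand and PSMC5 shares 15.3% with FTSJ3, and as no source names the strand setting of the counting, reads of the partners cannot be told apart.

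The base also holds the scaffold PSMD1, Rpn2, and the ubiquitin receptor PSMD4, Rpn10. PSMD1 was measured at 160 CPM, 141 CPM and 145 CPM in control and 125 CPM, 133 CPM and 154 CPM in siRBM3, and its groups overlapped. Its log2 fold change of -0.12 was -0.05 without siRBM3 replicate 3, -0.06 without control replicate 1 and -0.21 without siRBM3 replicate 5. PSMD4 was measured at 225 CPM, 217 CPM and 240 CPM in control and 210 CPM, 210 CPM and 211 CPM in siRBM3. Its groups did not overlap, but the log2 fold change was -0.11 with an FDR of 0.619 in edgeR, and -0.07 without control replicate 5.

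All 8 lid genes were below 0, between -0.28 and -0.12 on the log2 scale, with a median of -0.18. The lid surrounds PSMD14, Rpn11, the deubiquitinase that removes the chain. PSMD14 itself was measured at 92.0 CPM, 124 CPM and 112 CPM in control and 93.4 CPM, 97.5 CPM and 88.2 CPM in siRBM3, with overlap and an FDR of 0.468 in edgeR. PSMD7, Rpn8, which pairs with PSMD14, was measured at 116 CPM, 126 CPM and 142 CPM in control and 98.9 CPM, 104 CPM and 113 CPM in siRBM3. Its highest siRBM3 library was just below its lowest control library, and the log2 fold change was -0.28 ± 0.11 (SE), with an FDR of 0.318 in edgeR. PSMD11, Rpn6, which clamps the lid to the core, was measured at 150 CPM, 147 CPM and 140 CPM in control and 112 CPM, 130 CPM and 130 CPM in siRBM3. Its groups did not overlap either, at a log2 fold change of -0.23 ± 0.10 (SE) and an FDR of 0.349 in edgeR. The unadjusted p of PSMD11 was over 0.05 whichever of the 6 libraries was left out, and that of PSMD7 was over it without control replicate 5, siRBM3 replicate 3 or siRBM3 replicate 4. PSMD7, at chr16:74330712-74340186 (GRCh37, plus strand), shares 31.2% of its exon bases with a long noncoding RNA on the opposite strand, and PSMD11 lies at chr17:30771397-30810337 (plus strand) and shares none.

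Of the 5 activators or inhibitors, 4 were below 0 and the median log2 fold change was -0.09. The median was -0.04 without control replicate 3 or control replicate 5 and -0.03 without siRBM3 replicate 5. PSME2, the beta subunit of the PA28 activator, was measured at 94.5 CPM, 127 CPM and 148 CPM in control and 96.8 CPM, 102 CPM and 101 CPM in siRBM3. The control libraries were spread more widely than the siRBM3 libraries and overlapped them, at a log2 fold change of -0.30 ± 0.15 (SE) and an FDR of 0.455 in edgeR. The log2 fold change of PSME2 was -0.46 without control replicate 1, with an unadjusted p under 0.05, and -0.15 without control replicate 5, with one over it. Without the filter on low counts, with library size alone and with the replicate number as a block its unadjusted p was also under 0.05. Its partner PSME1 was at 175 to 272 CPM in control and 186 to 241 CPM in siRBM3. PSME4, which encodes the activator PA200, was the one above 0, at 88.0 CPM, 91.3 CPM and 76.2 CPM in control and 96.7 CPM, 90.3 CPM and 104 CPM in siRBM3, with an FDR of 0.501 in edgeR. PSMF1, the inhibitor PI31, was the steadiest of the group at 244 to 248 CPM in control and 235 to 248 CPM in siRBM3.

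The 6 assembly factors lay on both sides, with 4 below 0 and log2 fold changes from -0.41 to 0.28. Their median of -0.06 was -0.12 without control replicate 1, -0.02 without control replicate 3 and -0.14 without siRBM3 replicate 4. PSMG1, which forms the PAC1 and PAC2 chaperone of the alpha ring with PSMG2, was measured at 41.7 CPM, 54.7 CPM and 47.3 CPM in control and 39.2 CPM, 34.5 CPM and 34.4 CPM in siRBM3. The groups did not overlap, and the siRBM3 level was 0.753 times the control level, a log2 fold change of -0.41 ± 0.13 (SE) with an FDR of 0.244 in edgeR. As for PSMB5, its unadjusted p was under 0.05 in all 6 fits that left out 1 library. PSMG1 lies at chr21:40546695-40555414 (GRCh37, minus strand) and shares no exon base with another gene. PSMG2 stood at 31.6 CPM, 33.7 CPM and 35.5 CPM in control and at 34.1 CPM, 32.4 CPM and 33.9 CPM in siRBM3, with a log2 fold change of -0.01 (95% interval -0.24 to 0.23).

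PSMG3 and PSMG4 encode the other alpha ring chaperone pair, PAC3 and PAC4, and stood on opposite sides of 0. PSMG3 was measured at 22.1 CPM, 27.5 CPM and 28.0 CPM in control and 21.1 CPM, 22.2 CPM and 20.1 CPM in siRBM3, at a log2 fold change of -0.29 and an FDR of 0.392 in edgeR. PSMG4 was measured at 15.5 CPM, 14.0 CPM and 16.1 CPM in control and 20.01 CPM, 18.1 CPM and 17.1 CPM in siRBM3. It was the only one of the 40 members with every siRBM3 library above every control library, at a log2 fold change of 0.28 ± 0.13 (SE) and an FDR of 0.411 in edgeR. Of its exon bases 13.3% are shared with SLC22A23 on the opposite strand. The base chaperones PSMD5 and PSMD10 (gankyrin) overlapped between the groups, at log2 fold changes of -0.12 and 0.01. That of PSMD5 was -0.04 without control replicate 3.

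Of the 2 genes that match by symbol alone, PSMC3IP (HOP2, a recombination factor of meiosis) had the lowest log2 fold change of the 40. It was measured at 18.6 CPM, 14.5 CPM and 25.8 CPM in control and 10.1 CPM, 13.4 CPM and 14.6 CPM in siRBM3. One control library lay within the siRBM3 range, and the log2 fold change was -0.63 ± 0.23 (SE), with an FDR of 0.306 in edgeR. Its unadjusted p was over 0.05 without control replicate 5, where the log2 fold change was -0.39, or without siRBM3 replicate 3. It shares 30.1% of its exon bases with MLX on the opposite strand. PSME3IP1 (PIP30, a partner of PSME3) had a log2 fold change of 0.02. Without these 2 genes the median over the remaining 38 was -0.13. Over the 26 core and cap members other than the inducible PSMB10 it was -0.14.

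**Figure D3:**
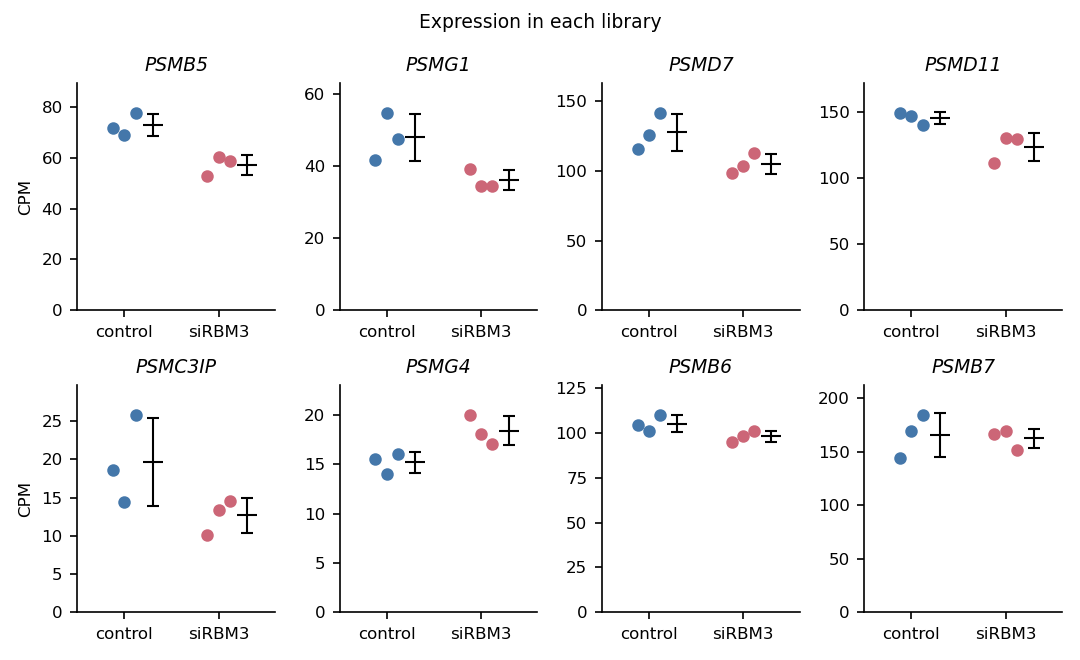
CPM (y axis, from 0) in each of the 3 control and 3 siRBM3 libraries (points, in replicate order) with mean ± SD, for the 5 members with an unadjusted p under 0.05, for PSMG4 and for the other proteolytic subunits PSMB6 and PSMB7. PSMB5, PSMG1, PSMD7 and PSMD11 have no overlap between the groups, and PSMG4 is the only panel with the siRBM3 libraries above.

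The deviation of each library from a gene's mean over the 6 libraries shows where the members' difference lay. For the cap, the mean deviation on the log2 CPM scale was 0.05, 0.10 and 0.09 in control replicates 1, 3 and 5 and -0.13, -0.07 and -0.04 in siRBM3 replicates 3, 4 and 5. The 2 groups of libraries did not overlap for the cap. For the core it was -0.10, 0.11 and 0.11 in control and -0.01, 0.01 and -0.11 in siRBM3, so that control replicate 1 stood among the siRBM3 libraries. For the activators or inhibitors and for the assembly factors control replicate 1 was likewise within or below the siRBM3 libraries, at -0.12 and -0.08. Without control replicate 1, the median log2 fold change of all 40 members was -0.14.

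**Figure D4:**
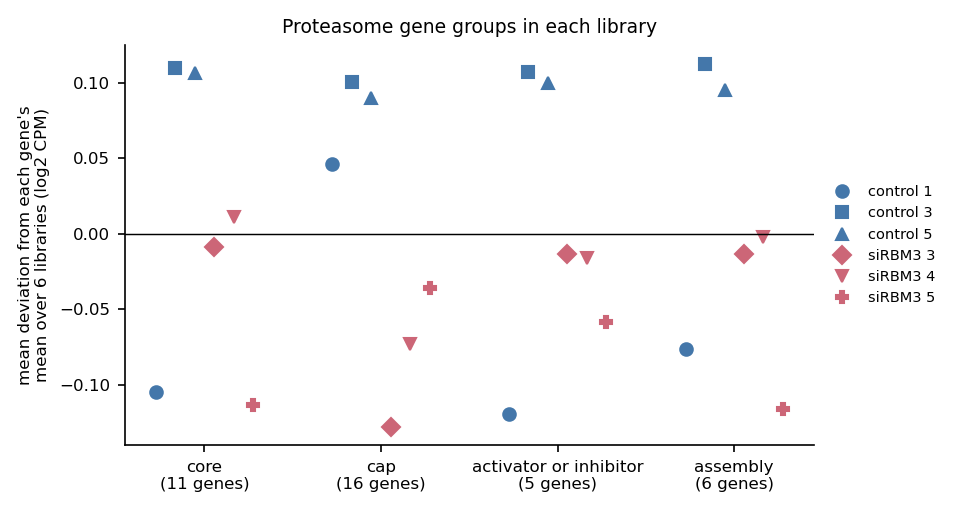
Mean deviation from each gene's mean over the 6 libraries (y axis, log2 CPM) for the 4 groups of members (x axis), 1 symbol for each library. The control libraries lie above the siRBM3 libraries for the cap, while control replicate 1 lies at -0.10 for the core, beside siRBM3 replicate 5 at -0.11.

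Levels were compared between genes only per length, as CPM per kilobase of the union of a gene's annotated exons (RPKM). In the control libraries the members' median was 29.3 RPKM, and the core (median 47.1 RPKM) stood above the cap (26.2 RPKM) and the assembly factors (15.8 RPKM). PSMA7 was highest at 195 ± 2.73 RPKM (SD, n = 3), followed by PSMB4 at 134 ± 5.24 RPKM and the activator PSME1 at 129 ± 27.9 RPKM, of which the last 2 did not differ beyond their spread. PSMG4 was lowest at 1.46 ± 0.10 RPKM, below PSMG2 at 2.69 ± 0.16 RPKM and PSMC1 at 3.98 ± 0.34 RPKM. PSMC1 shares 76.1% of its exon bases with NRDE2, and their reads cannot be told apart. In the cap PSMD4 was highest at 75.3 ± 3.91 RPKM, and PSMC3 led the ATPases at 63.3 ± 8.39 RPKM. Among the lid genes PSMD13 (49.2 RPKM), PSMD7 (47.3 RPKM) and PSMD8 (46.4 RPKM) did not differ beyond their spread, and PSMD6 was lowest at 12.2 RPKM.

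The order depended on the length taken. PSMA7 was the highest under each of the lengths tried, at 334 RPKM per kilobase of the longest transcript and 355 RPKM per kilobase of the canonical transcript, a length chosen after seeing the data. With the longest transcript PSMB4 was at 138 RPKM, behind PSME1 (202 RPKM), PSMD4 (171 RPKM) and PSMB7 (169 RPKM), and with the canonical one it came next after PSMA7, at 311 RPKM. With the canonical transcript PSMC5 (103 RPKM) and PSMC3 (93.5 RPKM) did not differ beyond their spread, and PSMD7 (78.3 RPKM) stood below PSMD13 (135 RPKM) and PSMD8 (132 RPKM) by more than their spread. PSMG4 was then at 19.4 RPKM, PSMG2 at 31.4 RPKM, and PSMC1, with the NRDE2 overlap given above, was the lowest at 5.55 RPKM. Core, cap and assembly factors kept their order with medians of 94.8, 74.4 and 25.7 RPKM, but the activators or inhibitors stood above the cap by exon union (34.4 RPKM) and below it by canonical transcript (57.2 RPKM).

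Of 36 other genes of the pathway described here, 35 were tested and DDI1 had 0 counts in these libraries. At an unadjusted p under 0.05, 3 of the 35 were lower and 2 were higher, beside 6.58% and 6.56% of all genes tested. In edgeR 0 passed a 1.5-fold change and an FDR under 0.01, as did 0% of all 15099 genes tested. With DESeq2 SEL1L passed both thresholds, beside 1.27% of 12589 genes. The median log2 fold change of the 35 was -0.06. In the set of proteasome parts with other names, UCHL5, a deubiquitinase of the cap, was measured at 51.1 CPM, 63.4 CPM and 55.5 CPM in control and 43.4 CPM, 45.3 CPM and 43.1 CPM in siRBM3. Its groups did not overlap, at a log2 fold change of -0.37 ± 0.11 (SE) and an FDR of 0.230 in edgeR. ADRM1, the receptor that holds UCHL5, had a log2 fold change of -0.22 (FDR 0.465 in edgeR), and POMP, the maturation factor of the core, one of 0.10 (FDR 0.866 in edgeR).

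In the set around the transcription of proteasome genes, NFE2L1 itself was at 416 to 522 CPM in control and 413 to 454 CPM in siRBM3, with overlap and an FDR of 0.552 in edgeR. NFE2L1 is drawn out of the endoplasmic reticulum through the degradation pathway that SEL1L and SYVN1 form, and the log2 fold changes of these partners had opposite signs. SEL1L was measured at 86.6 CPM, 83.5 CPM and 77.9 CPM in control and 142 CPM, 124 CPM and 133 CPM in siRBM3, with no overlap. Its log2 fold change was 0.68 ± 0.09 (SE), 60.7% higher, with an FDR of 0.082 in edgeR and an adjusted p of 7e-06 in DESeq2. SYVN1, the ubiquitin ligase of the pair, was measured at 76.9 CPM, 80.8 CPM and 81.6 CPM in control and 57.5 CPM, 64.6 CPM and 55.6 CPM in siRBM3, also with no overlap. Its log2 fold change was -0.43 ± 0.10 (SE), with an FDR of 0.151 in edgeR and an adjusted p of 0.021 in DESeq2. SYVN1 thus did not reach an FDR under 0.01 with either tool.

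Among the factors that shuttle ubiquitylated proteins to the cap, UBQLN4 (log2 fold change -0.30, FDR 0.355 in edgeR) and UBQLN2 (0.25, FDR 0.334) lay on opposite sides of 0. Their unadjusted p was over 0.05 in 5 and in 4 of the 6 fits that left out 1 library, for UBQLN4 in all but the one without siRBM3 replicate 5 and for UBQLN2 in all but those without control replicate 1 or control replicate 3. The log2 fold change of UBQLN4 was -0.19 without siRBM3 replicate 3. The inducible core subunits PSMB8 and PSMB9 overlapped between the groups, at log2 fold changes of -0.34 (FDR 0.452) and -0.12 (FDR 0.827) in edgeR. None of the 7 genes of the VCP segregase and none of the 6 of ubiquitin and its E1 had an unadjusted p under 0.05 in edgeR. RPS27A, a ubiquitin fusion gene, was the most variable of them, at 240 CPM in siRBM3 replicate 5 and 914 CPM in siRBM3 replicate 3.

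**Figure D5:**
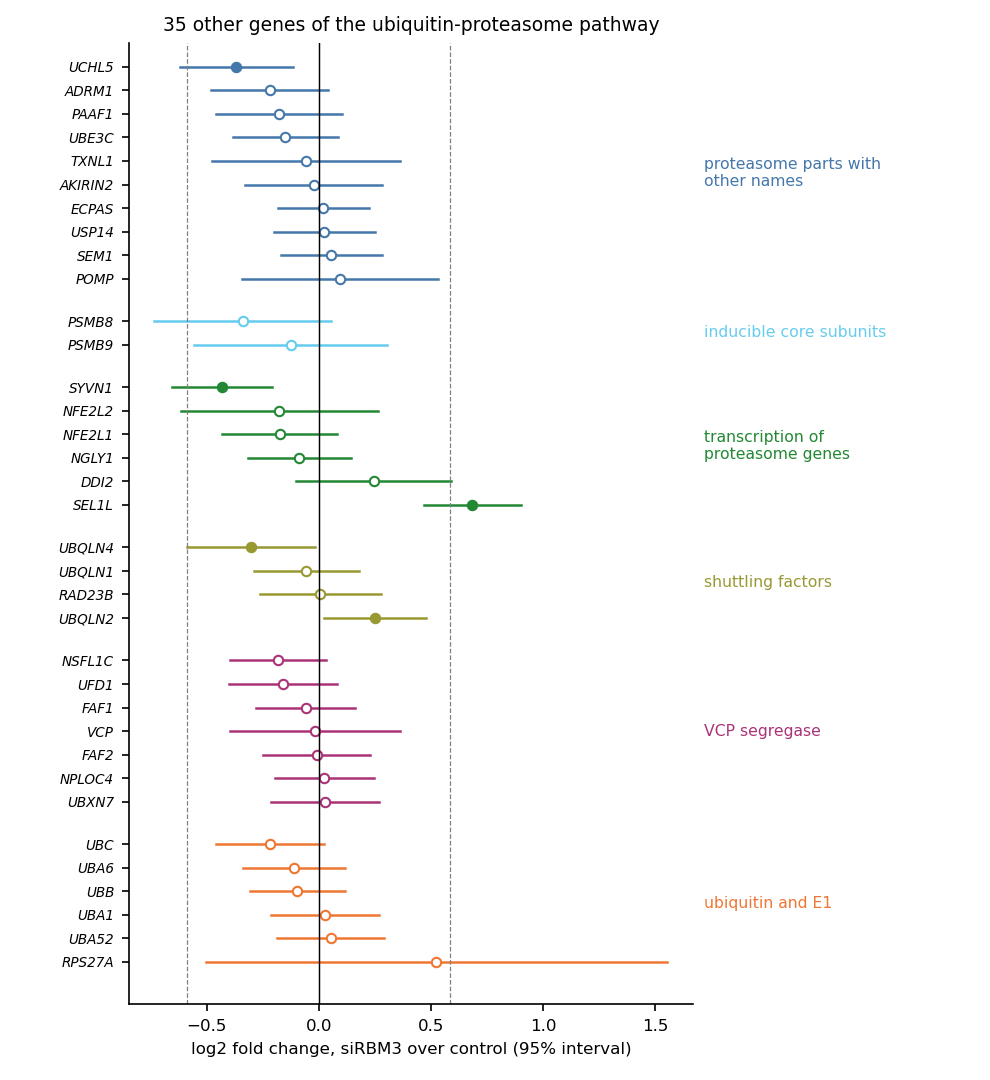
Log2 fold change of siRBM3 over control (x axis) with its 95% interval for the 35 other genes of the ubiquitin and proteasome pathway, grouped by role. Filled points have an unadjusted p under 0.05, dashed lines mark a 1.5-fold change, and SEL1L at 0.68 is the only filled point beyond them.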

How the data were processed

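RNA of T24 cells was sequenced as polyA-selected, stranded, single-end libraries, 3 control and 3 siRBM3. The authors trimmed adaptors, mapped the reads to GRCh37 by STAR, had Picard mark duplicates and deposited raw counts per gene from featureCounts. No source used here says whether marked duplicates were counted or which strand setting was used. Library totals are 23603992 to 45098612 counts. Symbols, exon lengths and overlaps came from GENCODE release 44 on GRCh37 (55665 of 63677 identifiers matched). No value column was left unused.

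Genes were filtered with filterByExpr (at least 10 counts), scaled by TMM and tested over 15099 genes with edgeR 4.0.16 (quasi-likelihood, R 4.3.3), with Benjamini-Hochberg adjustment over all genes; SE, intervals (95%) and p come from that fit. DESeq2 1.42.0 and limma 3.58.1 were alternatives. The scripts were tested on simulated data. Replicates of a group differed by more than sampling noise. CPM are scaled by TMM, and deviations use log2(CPM + 0.5). Members, lists, motifs and tests were chosen with earlier results of these data known. Named genes were RBM3, the list's markers, the proteolytic subunits, in each role the member with the smallest p and the highest and lowest levels, members and pathway genes with an unadjusted p under 0.05, members without overlap, and genes below 1 CPM; other members named serve to complete a role and were chosen after their values were seen. No protein comparison was made, and 1 gene of the pathway list is not reported here.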

Additional observations from a re-analysis of the deposited data

How the results depend on the processing

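With RLE size factors, limma-voom, a filter on a mean of 20 counts, no filter, library size alone and DESeq2, the counts of members lower, higher and called stayed within 1.5 times those given above, and no median turned sign. Library size alone moved the median of the cap to -0.20, of the activators or inhibitors to -0.14 and of the assembly factors to -0.11. Leaving out 1 library in turn gave 2 to 9 members lower, 0 higher and 0 called. It gave medians of -0.14 to -0.11 for all members, -0.13 to -0.07 for the core, -0.20 to -0.14 for the cap, -0.12 to -0.03 for activators or inhibitors and -0.14 to -0.02 for assembly factors. The log2 fold change of PSMB7 was above 0 in 2 of these fits, at 0.051 without control replicate 5 and 0.015 where siRBM3 replicate 5 was absent. RBM3 passed both thresholds with DESeq2 (-2.14), without the filter (-2.13) and with the replicate block (-2.57), and stood between -2.40 and -1.96 with a library left out. Control and siRBM3 share 2 replicate numbers, 3 and 5, whose deviations correlated at 0.53 and 0.09. Libraries of different numbers correlated between -0.36 and 0.20. These values do not settle whether libraries of the same number were paired. With a replicate block, in which a library without a partner adds nothing to the difference, 12 members were lower, beside 13.5% of all genes, and 1, PSME4, was higher, beside 11.4%, and the medians of the core and the assembly factors were -0.18 and -0.20. The members' median level was 45.3 RPKM per kilobase of the longest transcript and 54.5 RPKM per kilobase of the canonical one. The cause of these changes was not tested. The effect of depth was not tested. In these 3 libraries a group, the 95% interval of 35 of the 40 members holds 0.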
